A study of Mus musculus with 4 samples.

Results

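Nuclei of the type found in hippocampal area CA1 were chosen by their own UMI counts of marker genes from single-nucleus RNA libraries of mouse brain, and 134 of 52132 kept nuclei met the rule. The rule took nuclei with 500 to 50000 unique molecular identifiers (UMIs, each 1 captured RNA molecule), more than 200 genes and under 5% mitochondrial UMIs. A member had at least 1 UMI of *Slc17a7*, the vesicular glutamate transporter of cortical and hippocampal excitatory neurons, and none of *Gad1* or *Gad2*, which make GABA. It also had at least 1 UMI of *Fibcd1* and at least 3 of *Zbtb20*, a zinc finger repressor of hippocampal pyramidal neurons. It had no *Prox1*, *Syt6* or *Rspo1* and at most 1 UMI of *Tcf7l2*, genes of dentate granule, cortical and thalamic neurons. The brains came from 2-month-old female mice of the C57/BL6 strain, 2 WT and 2 *Csf1r*+/-. The *Csf1r*+/- mice carry 1 inactive copy of the CSF-1 receptor gene in all their cells, and no mouse was treated. Mice were perfused, nuclei were prepared without detergent, and myelin debris was taken out with magnetic beads. Each library came from 1 mouse, and the tissue label is brain, so the number of CA1 nuclei in a library also depends on how much hippocampus reached it. Fewer cells of a type and less RNA per cell cannot be told apart in the counts of a library.

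CA1 pyramidal neurons are the main output cells of the hippocampus proper. They receive Schaffer collaterals from CA3 and direct input from entorhinal cortex, and project to the subiculum and beyond. Their glutamate synapses are a standard model of activity-dependent strengthening, which depends on NMDA receptors and on the delivery of AMPA receptors. They vary from superficial to deep within the cell layer and from the dorsal to the ventral pole.

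The 134 nuclei were spread unevenly, with 78 in WT replicate 1, 26 in WT replicate 2, 19 in *Csf1r*+/- replicate 1 and 11 in *Csf1r*+/- replicate 2. Their summed UMIs were 786896, 228587, 231488 and 153544 in the same order, so WT replicate 1 was measured most deeply and *Csf1r*+/- replicate 2 least. The median nucleus held 9048, 8240, 9619 and 10933 UMIs. No cell barcode was shared between libraries among the members. Nuclei with a high Scrublet score, a sign that a droplet held 2 nuclei, were 11 and 3 of the WT members and none of the *Csf1r*+/- members. That was 14.1% and 11.5% of the WT members. Of all other excitatory nuclei, 13.5%, 12.1%, 7.07% and 10.3% were flagged by library. The flagged share was set by the number of nuclei in a library (the top 0.8% per 1000 nuclei), so it was larger in the WT libraries. The flagged members were kept in the main counts. *Csf1r* itself gave 339 and 575 UMIs over all kept WT nuclei and 589 and 568 over the *Csf1r*+/- nuclei, which is 3.04, 6.53, 6.68 and 6.36 CPM (UMIs scaled to a total of 1e+06). These levels also follow the number of microglia in a library, and counting at the 3' end cannot tell an inactive allele's transcript from an intact one, so they do not check the genotype. Among the CA1-type nuclei a single *Csf1r* UMI was found. Every member held *Xist*, and *Ddx3y* was at 0 in each library, as the female label requires.

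The label was then checked with 9 CA1 genes outside the rule. CPM here were taken over the summed UMIs of a class in a library. *Man1a*, a Golgi mannosidase that trims N-glycans (mm10, chr10:53904785-54076609, minus strand), measured 455 and 529 CPM in the WT libraries of CA1-type nuclei and 341 and 358 CPM in the *Csf1r*+/- libraries. Its mean was 101 CPM in all other excitatory nuclei and 106 CPM in nuclei of upper cortical type (at least 3 *Cux2* UMIs, at most 2 of *Zbtb20* and none of *Fibcd1*). All libraries of the CA1-type nuclei were therefore above both classes. *Mpped1*, a metallophosphoesterase gene, stood at 273, 140, 276 and 176 CPM by library against means of 95.3 and 75.5 CPM. *Ndst4*, a heparan sulfate sulfotransferase gene, reached 163, 306, 173 and 163 CPM against 58.7 and 26.04 CPM. In all, 7 of the 9 genes were above the other excitatory nuclei in each of the 4 libraries, and 1 was below them in each. Against the upper cortical type, 8 of the genes were tested (edgeR, described below). At an adjusted p under 0.05, 7 were at least 2-fold higher and 1 was at least 2-fold lower. *Lefty1* had UMIs in WT nuclei only. Of the 134 nuclei, 132 held at least 1 of the 9 genes and 103 held at least 3. The same counts were not made in the other classes, so they do not set the members apart. The 9 genes summed to a mean of 1111 CPM in CA1-type nuclei. They summed to 643 CPM in other excitatory and 647 CPM in upper-cortical-type nuclei.

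**Figure D1:**
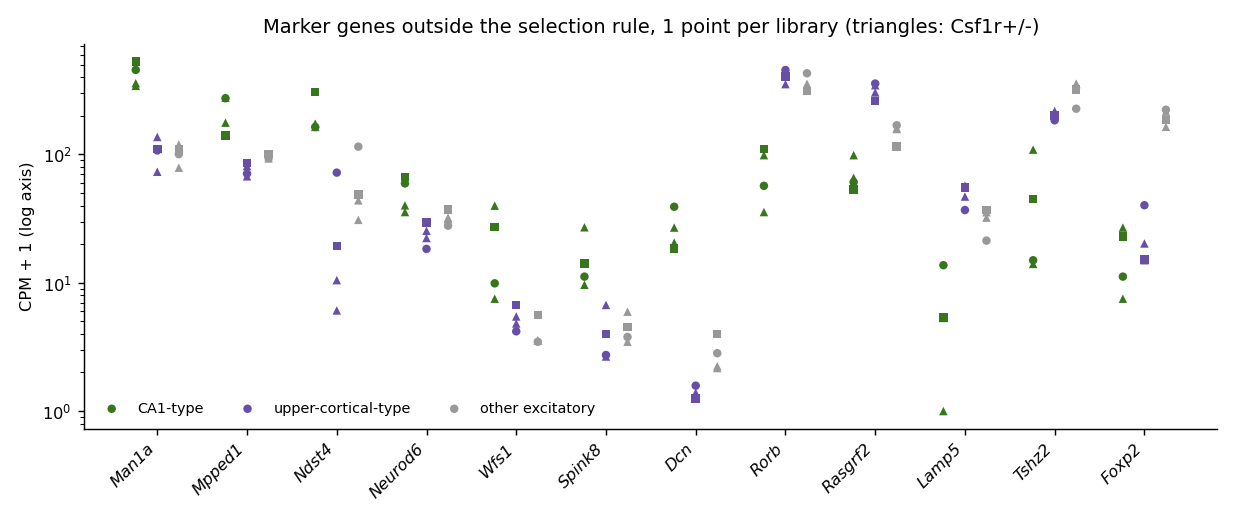
Levels of 12 marker genes in CA1-type, upper-cortical-type and other excitatory nuclei, on a log axis of CPM + 1, with 1 point per library (circles and squares WT, triangles *Csf1r*+/-). The CA1-type points lie above both other classes from *Man1a* to *Dcn*, with an overlap for *Neurod6*, and below both for *Rorb*, *Rasgrf2*, *Lamp5* and *Tshz2*.

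Genes listed for other cell types were partly present in the members. The 7 CA3 genes summed to 349, 525, 419 and 528 CPM by library, against a mean of 706 CPM in other excitatory nuclei. *Trps1* (200.5 against 258 CPM), *Grik4* (152 against 154 CPM) and *Cpne4* (92.1 against 249 CPM) made up most of that sum, *Iyd* was at 0, and no CA3 gene was above the other excitatory nuclei in all libraries. The 8 dentate genes summed to 20.3, 83.1, 21.6 and 65.1 CPM, with *Trpc6* the most abundant and *C1ql2* and *Tdo2* at 0. Of the 5 upper cortical genes, 4 were below the other excitatory nuclei in each library, with *Rorb* at 55.9, 109, 34.6 and 97.7 CPM against a mean of 352 CPM. The 6 deep-layer genes averaged 944 against 1906 CPM in sum, with *Hs3st4* the most abundant. 1 of them went the other way, since *Etv1*, an ETS transcription factor gene, stood at 234, 184, 147 and 189 CPM against 60.6 CPM. The 12 interneuron genes summed to 591, 717, 531 and 690.4 CPM against 723 CPM, of which *Kcnc2* gave the most and was above the other excitatory nuclei in each library, while *Vip*, *Npy* and *Lhx6* were at 0. The 4 thalamus genes averaged 395 against 364 CPM, nearly all of it *Ntng1*. The oligodendrocyte precursor genes *Pdgfra*, *Cspg4* and *C1ql1* were at 0. The 10 oligodendrocyte genes summed to 53.4, 65.6, 64.8 and 65.1 CPM, with *Mbp* the most abundant and *Mog*, *Cldn11* and *Ermn* at 0. The 10 astrocyte genes summed to 164, 232, 203 and 150 CPM, most of it *Slc1a2*, with *Aqp4* at 0. The 10 microglia genes summed to 43.2 and 43.7 CPM in the WT members and to 129.6 and 111 CPM in the *Csf1r*+/- members (48.9, 87.0, 71.6 and 77.5 CPM by library in other excitatory nuclei), with *P2ry12* the most abundant and *Tmem119* at 0. That difference separated the genotypes, and its part in the genotype results was not tested. The 8 endothelial and mural genes summed to 7.62, 131, 8.64 and 6.51 CPM, so WT replicate 2 stood apart, with *Flt1* at 61.2 CPM, and *Cldn5* at 39.4 CPM from 1 nucleus. Without the members with a high Scrublet score, the sum in WT replicate 2 was 15.5 CPM.

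The nuclei at the rule's limits differed from the rest for *Zbtb20* more than for *Fibcd1*. *Zbtb20* had a median of 13.5 UMIs and a highest count of 86 in a member, and 5 members had exactly 3. Those 5 nuclei held *Rorb* at 613 CPM and *Tshz2* at 684 CPM, with *Man1a* at 47.2 CPM. The 7 nuclei just outside, with 2 *Zbtb20* UMIs, held *Rorb* at 231 CPM and *Man1a* at 21.04 CPM. *Fibcd1* was at a single UMI in 92 members and at 2 or more in 42, with *Man1a* at 425 and 457 CPM and *Rorb* at 70.9 and 57.8 CPM in these sets. Another 1904 nuclei met the rest of the rule with at least 3 *Zbtb20* UMIs but had no *Fibcd1*, with *Man1a* at 138 CPM, *Tshz2* at 350 CPM and *Ndst4* at 210 CPM. A further 83 nuclei had *Fibcd1* but fewer than 3 *Zbtb20* UMIs, with *Rorb* at 342 CPM.

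CA1-type nuclei made up 0.484% of kept nuclei in WT replicate 1 (95% exact binomial interval 0.383 to 0.604%) and 0.171% in WT replicate 2 (0.111 to 0.250%). In *Csf1r*+/- they made up 0.198% (0.119 to 0.309%) and 0.0984% (0.0491 to 0.176%). The intervals cover counting error only. The genotypes overlapped, since WT replicate 2 lay between the *Csf1r*+/- libraries. The mean was 0.327% ± 0.222 in WT and 0.148% ± 0.0705 in *Csf1r*+/- (SD, n = 2 each; difference -0.179 percentage points; exact permutation test, two-sided, p = 0.667). With 2 libraries a group this test cannot go below 0.333. As a share of excitatory nuclei the means were 0.996% and 0.338%, and the libraries then did not overlap (exact permutation p = 0.333). They did not overlap either with at least 2 *Fibcd1* UMIs (0.149% and 0.0656% against 0.0626% and 0.0179%) or with the rule on thinned counts (0.0494% and 0.0304% against 0.0225% and 0.0191%), and overlapped under the other 3 settings tried.

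**Figure D2:**
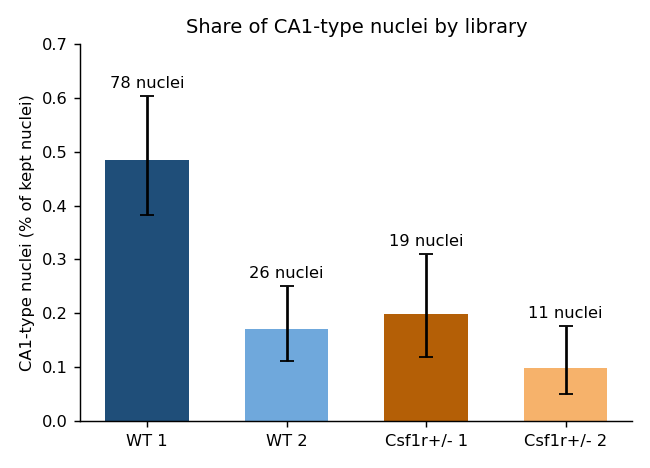
CA1-type nuclei as a percentage of kept nuclei in each library (bars; lines are 95% exact binomial intervals, numbers are nuclei). WT replicate 1 stands at 0.484%, and the other libraries lie between 0.0984% and 0.198%.

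Which genes set CA1-type nuclei apart from another excitatory class of the same brains was asked against the 2268 upper-cortical-type nuclei (578, 403, 711 and 576 by library). UMIs were summed per library and class and tested with edgeR's quasi-likelihood test with the library as a block. Of 8754 genes tested, 440 were higher by at least 2-fold in CA1-type nuclei (5.03%) and 549 were lower (6.27%) at an adjusted p under 0.05. Only 3 of these 989 genes were used by either rule, and without them 388 of the 438 higher and 521 of the 548 lower genes went the same way in all 4 libraries. Against the remaining excitatory nuclei, 325 of the 438 also had at least 2 times the mean CPM, a description without a test.

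Of the genes with at least 50 CPM in CA1-type nuclei, *Ror1* and *Pde11a* were among those farthest above the upper-cortical type. Levels here and in the next paragraphs are CPM after TMM scaling. *Ror1*, a receptor tyrosine kinase-like Wnt5a receptor gene (chr4:100095791-100444765, plus strand), stood at 175, 272, 163 and 251 CPM in CA1-type nuclei against 3.37 ± 0.912 CPM (SD, n = 4 libraries) in upper-cortical-type nuclei, a log2 fold change of 5.91 ± 0.23 (SE; edgeR adjusted p = 1.8e-11). *Pde11a*, which breaks down cyclic AMP and cyclic GMP (chr2:75989141-76338774, minus strand), stood at 318, 186, 98.9 and 119 CPM against 3.47 ± 1.52 CPM (log2 fold change 5.72 ± 0.23, adjusted p = 2.35e-11). *Sema3e*, a secreted axon guidance cue, stood at 396, 256, 357 and 179 CPM against 13.6 ± 2.61 CPM (4.46 ± 0.17, adjusted p = 1.63e-11). No library of one class reached the other for these 3 genes. *Bcl11b*, the zinc finger factor also called CTIP2, averaged 210 ± 52.5 CPM against 14.98 ± 7.45 CPM, and *Crym*, a thyroid hormone binding protein gene, 114 ± 21.5 CPM against 9.39 ± 2.43 CPM. The serotonin receptor gene *Htr4* averaged 124 ± 48.6 CPM against 9.69 ± 1.75 CPM. *Adam12*, *Cpne7*, *Kit*, *Arhgap12*, *Gm2115* and the long noncoding RNA *Gm26905* completed the 12 named for the size of their fold, which ranged from 3.39 to 5.91 on the log2 scale. Outside these 12, *Dcn*, the proteoglycan decorin, was at 37.0, 16.5, 25.8 and 19.8 CPM against 0.385 ± 0.164 CPM (5.88 ± 0.50, adjusted p = 1.75e-07).

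Of the genes with at least 50 CPM in upper-cortical-type nuclei, *Pparg*, a lipid-sensing nuclear receptor gene, was among those farthest below. It stood at 18.5, 45.4, 0 and 26.4 CPM against 218 ± 19.0 CPM in upper-cortical-type nuclei (log2 fold change -3.36 ± 0.31, adjusted p = 3.64e-07). *Pdzrn3*, a ubiquitin ligase gene, stood at 65.4, 161, 8.60 and 179 CPM against 893 ± 108 CPM (-3.31 ± 0.31). Both genes were lower in each library, with a wide spread among the CA1-type libraries. *Chrm2*, a muscarinic acetylcholine receptor gene, averaged 14.6 ± 20.8 CPM against 111 ± 10.2 CPM, and the transcription factor genes *Tshz3* and *Mkx* averaged 23.4 ± 7.84 and 24.2 ± 6.91 CPM against 173 ± 34.4 and 199 ± 48.2 CPM. *Gm20752*, *Bmper*, *Ccbe1*, *Exph5*, *Herc6*, *Pld5* and *Gm20063* made up the rest, with log2 fold changes from -5.53 to -3.22.

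**Figure D3:**
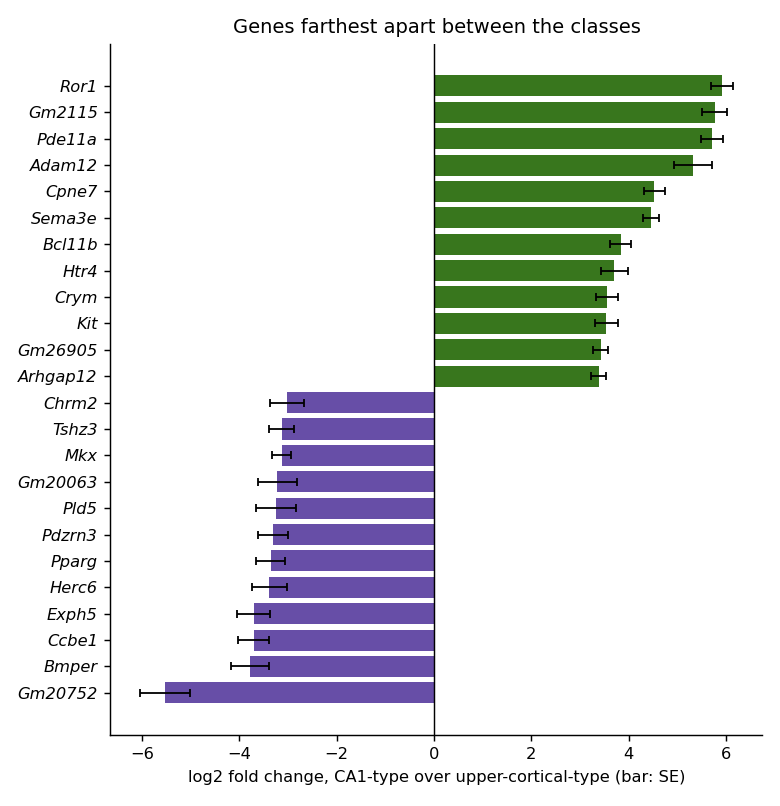
Log2 fold changes between CA1-type and upper-cortical-type nuclei for 12 genes in each direction (bars; lines are SE). These had the largest folds among genes with at least 50 CPM in the higher class and the same direction in each library. The higher genes run from 3.39 (*Arhgap12*) to 5.91 (*Ror1*) and the lower ones from -5.53 (*Gm20752*) to -3.02 (*Chrm2*).

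Glutamate receptor genes differed by subunit. *Gria1*, an AMPA receptor subunit prominent at CA1 synapses, stood at 3060, 2727, 2619 and 2903 CPM in CA1-type nuclei and at 570, 689, 523 and 531 CPM in upper-cortical-type nuclei (log2 fold change 2.30 ± 0.12, adjusted p = 2.55e-10). The classes were far apart and their libraries close together. *Gria4* went the other way, with 540 ± 87.9 against 1671 ± 242 CPM (-1.62 ± 0.13, adjusted p = 1.26e-07). Among proteins that ride with AMPA receptors, *Shisa6* was higher, with 612, 623, 507 and 754 CPM against a mean of 76.5 CPM (3.09 ± 0.19), as was *Cacng8* (98.6 ± 9.54 against 35.3 ± 6.21 CPM) and, at low counts, *Cnih2*, while *Cacng2* and *Cacng3* were lower (-1.22 ± 0.19 and -1.25 ± 0.16). In the counts of list members that follow, higher or lower by at least 2-fold means that the adjusted p was also under 0.05, which held for 5.03% (higher) and 6.27% (lower) of all genes tested. Of the 11 AMPA receptor genes tested, 4 were at least 2-fold higher and 3 lower, with a median log2 fold change of 0.47 against 0.02 over all genes tested. Of 4 NMDA receptor genes tested, *Grin3a* passed both limits (127 ± 34.1 against 35.9 ± 12.8 CPM), and *Grin2a* (3423 ± 383 against 1962 ± 179 CPM) and *Grin2b* were higher by less (log2 fold changes 0.80 and 0.55). Among 7 metabotropic receptor genes, *Grm5* was higher (0.81 ± 0.11), and *Grm3* and *Grm8*, which couple to inhibitory G proteins, were the 2 lower ones past both limits (-1.68 ± 0.16 and -1.92 ± 0.20). The list median was -1.34, and *Grm2* (-1.87 ± 0.64, adjusted p = 0.0544) and *Grm4* (-1.34 ± 0.52, adjusted p = 0.0937) missed the adjusted threshold. The kainate receptor gene *Grik1* was the only one of 7 kainate receptor genes past both limits, and it was lower (-1.13 ± 0.25).

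Among GABA receptor genes *Gabra5*, the subunit of receptors outside synapses in hippocampal pyramidal cells, stood at 238, 169, 146 and 145 CPM against 35.03 ± 8.995 CPM (log2 fold change 2.33 ± 0.15, adjusted p = 6.78e-09). Of 13 GABA receptor genes tested 1 was at least 2-fold higher and 3 were at least 2-fold lower, against 5.03% and 6.27% of all genes tested. Lower genes included *Gabra4* (-1.07 ± 0.15) and *Gabrd* (-2.52 ± 0.44), and the median over the list was -0.41.

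**Figure D4:**
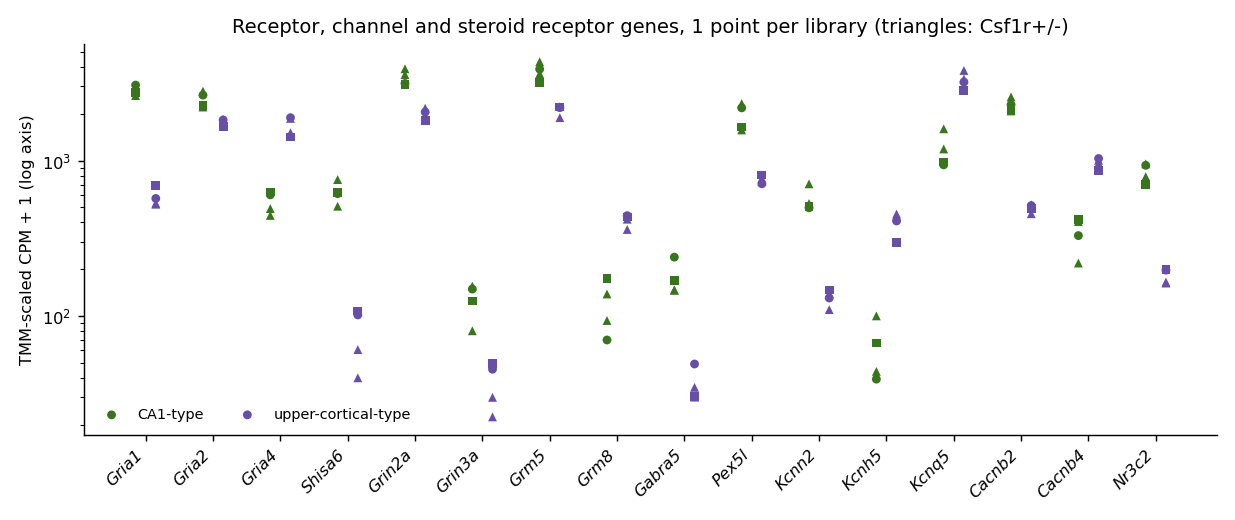
TMM-scaled CPM + 1 on a log axis for 16 receptor, channel and steroid receptor genes in CA1-type and upper-cortical-type nuclei, with 1 point per library (circles and squares WT, triangles *Csf1r*+/-). The CA1-type points lie clearly above for *Gria1*, *Shisa6*, *Gabra5*, *Kcnn2*, *Cacnb2* and *Nr3c2* and below for *Gria4*, *Grm8*, *Kcnh5*, *Kcnq5* and *Cacnb4*.

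Ion channel genes also divided by member. *Pex5l*, whose product TRIP8b traffics HCN channels, averaged 1932 ± 379 against 754 ± 43.2 CPM (log2 fold change 1.34 ± 0.13). *Kcnn2*, a small-conductance calcium-activated potassium channel gene, stood at 496, 503, 529 and 708 CPM against 131 ± 15.9 CPM (2.08 ± 0.13, adjusted p = 3.25e-09). Of 29 HCN and potassium channel genes tested 4 were higher by at least 2-fold, *Kcnn3* among them, and 6 lower, against 5.03% and 6.27% of all genes. The lower ones were *Kcnh5*, *Kcnh1*, *Kcnq5*, *Kcnj9*, *Kcnt1* and *Dpp10*, among them *Kcnq5* of the M-current (1176 ± 303 against 3290 ± 408 CPM, -1.51 ± 0.11). The calcium channel beta subunits moved apart, with *Cacnb2* at 2261 ± 223 against 494 ± 29.4 CPM (2.19 ± 0.11) and *Cacnb4* at 342 ± 91.2 against 965 ± 72.9 CPM (-1.50 ± 0.15). Among 21 sodium and calcium channel genes tested, *Cacnb2* and *Scn3b* were higher and *Cacnb4* and *Cacna2d3* lower by at least 2-fold, against 5.03% and 6.27% of all genes.

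*Nr3c2*, the mineralocorticoid receptor, which is rich in hippocampal neurons, stood at 932, 697, 787 and 952 CPM against 180 ± 19.9 CPM (log2 fold change 2.22 ± 0.13, adjusted p = 1.6e-09). The difference for *Nr3c1*, the glucocorticoid receptor, did not pass (160 against 164 CPM, adjusted p = 0.975). *Fkbp5*, a steroid-induced chaperone gene, was higher (1.28 ± 0.22), which made 2 of 5 tested genes of that list. Of 7 immediate early genes tested 4 were lower by at least 2-fold, namely *Nr4a1* (20.7 ± 4.09 against 54.1 ± 23.4 CPM), *Egr1*, *Bdnf* and *Arc*, with a list median of -1.25. Of 22 synaptic adhesion genes the teneurin genes *Tenm3* (1610 ± 236 against 444 ± 28.9 CPM) and *Tenm1* were higher and *Lrrtm3*, *Lrrtm4* and *Flrt2* lower. Of 20 postsynaptic genes 1 was higher by at least 2-fold and 2 were lower, *Homer1* and *Camkk2* (-1.07 ± 0.15 and -1.08 ± 0.19) (5.03% and 6.27% of all genes tested). Of 64 ribosomal protein genes tested 8 were at least 2-fold higher and none lower (list median 0.60). None of the 57 respiratory chain, 13 glycolysis, 11 mitochondrially encoded, 6 long noncoding RNA or single metallothionein genes tested passed both limits, and *Ndufs7*, at 1.07 ± 0.42, had an adjusted p of 0.0953.

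Whether loss of 1 *Csf1r* copy went with altered expression in CA1-type nuclei was tested on the sums of 2 WT and 2 *Csf1r*+/- libraries with edgeR's quasi-likelihood test. Of 8830 genes tested, 52 had an unadjusted p under 0.01, the study's threshold (0.589%), of which 26 were higher and 26 lower in *Csf1r*+/- (0.294% each). No gene passed an adjusted p under 0.05, and 366 had an unadjusted p under 0.05. The likelihood-ratio test of edgeR, which the study used, gave 129 genes under 0.01 and 2 under an adjusted 0.05, and DESeq2 gave 7 and 0. The 14 nuclei with a high Scrublet score were all WT, and without them 17 genes passed the adjusted threshold, 16 of them higher. Leaving out 1 library leaves its genotype with 1, so the spread then comes from the 2 libraries of the other genotype. Counts from those fits are given below as a description and are not read as calls. The libraries of the genotypes did not overlap for 2818 of the 8830 genes (31.9%).

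Of the higher genes, *Vwc2l*, a secreted protein gene with a von Willebrand factor C domain, had the smallest p. It measured 11.6 and 8.47 CPM in the WT libraries and 51.7 and 93.0 CPM in the *Csf1r*+/- libraries (log2 fold change 2.65 ± 0.57 SE, edgeR unadjusted p = 0.000152), from 4, 2, 2 and 2 nuclei. *Ppp1r2*, an inhibitor of protein phosphatase 1, was detected in 22, 5, 10 and 8 nuclei, with 37.4 and 38.1 CPM in the WT and 99.1 and 153 CPM in the *Csf1r*+/- libraries (1.69 ± 0.39, unadjusted p = 0.0003). *Chsy3*, a chondroitin sulfate synthase gene, stood at 173 and 229 CPM against 405 and 452 CPM (1.12 ± 0.27, unadjusted p = 0.000493). The rule for naming genes required that the genotypes did not overlap. *Dock10*, *Magi3*, *Car10*, *Gm28928*, *Ap1s1*, *Prkg2* and *Arhgap6* completed the 10 named, and *Prkg2* and *Arhgap6* rested on 3 and 2 WT UMIs, with ratios of 13.2 (95% counting interval 3.73 to 71.1) and 17.1 (3.88 to 156). *Arhgap6* had a log2 fold change of 3.82, which was 1.94 without WT replicate 1. Without WT replicate 2 the remaining WT library had 0 UMIs of *Arhgap6*, so no exact fold can be given. *Car10* turned to a log2 fold change of -0.34 in nuclei thinned to 2000 UMIs.

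Among the lower genes, *Pde11a*, one of the genes that set CA1-type nuclei apart from cortex, measured 333 and 191 CPM in the WT libraries and 99.1 and 119.6 CPM in the *Csf1r*+/- libraries (log2 fold change -1.32 ± 0.33, unadjusted p = 0.000725). It was no longer under 0.01 without WT replicate 1 (-0.80, unadjusted p = 0.0602) or without *Csf1r*+/- replicate 1. *Fth1*, the ferritin heavy chain that stores iron, stood at 127 and 191 CPM against 64.6 and 39.9 CPM (-1.48 ± 0.38, unadjusted p = 0.000986). *Rps19*, a small ribosomal subunit gene, had 18 and 6 UMIs in WT and none in *Csf1r*+/-, which makes it at least 3.03-fold lower against a floor of 3 counts per genotype. *Spag17*, with 16 and 3 WT UMIs, was at least 2.40-fold lower, and *Eid1* had 37 UMIs in WT and 1 in *Csf1r*+/- (ratio 14.0, 95% counting interval 2.37 to 569). *Dach1*, *Rps7*, *Rpl17*, *Mlf2* and *Nrbp1* completed the list, and the last 2 had 1 UMI each in *Csf1r*+/-. Of the 26 lower genes, 8 were at 0 in both *Csf1r*+/- libraries, and the median lower gene had 38 UMIs over all libraries against 86 for the higher genes.

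**Figure D5:**
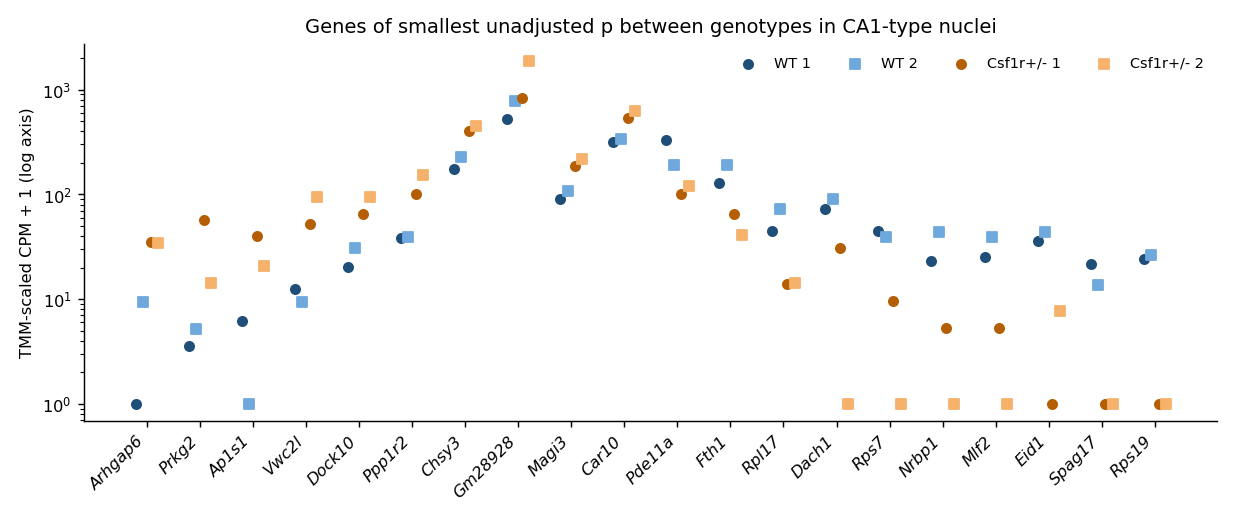
TMM-scaled CPM + 1 on a log axis in CA1-type nuclei of each library, for the 10 higher and 10 lower genes with the smallest unadjusted p. The genes were chosen for genotypes that do not overlap, and points at 1 are libraries without a UMI.

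Of 11 AMPA receptor, 4 NMDA receptor, 5 metabotropic receptor, 12 GABA receptor, 29 HCN and potassium channel and 21 sodium and calcium channel genes tested, none had p under 0.01 in either direction, against 0.589% of all genes tested. Their median log2 fold changes lay between -0.10 and 0.21, against -0.02 over all genes. *Gria1* measured 3202 and 2799 CPM in the WT and 2623 and 2916 CPM in the *Csf1r*+/- libraries, which overlapped. *Grik1* was the only kainate receptor gene of 7 under 0.01 (51.6 and 72.0 against 21.5 and 13.3 CPM, unadjusted p = 0.00684). Of 22 synaptic adhesion genes *Lrrtm4*, an organizer of excitatory synapses, was higher (2108 and 1825 against 3670 and 2624 CPM, log2 fold change 0.68 ± 0.23, unadjusted p = 0.00821). In nuclei thinned to an equal number of UMIs, *Lrrtm4* averaged 3.09 and 3.42 UMIs per nucleus in the WT libraries. It averaged 4.95 and 3.18 UMIs in the *Csf1r*+/- libraries, so the genotypes then overlapped. Of 20 postsynaptic genes *Ddn*, dendrin, with 12 and 5 WT UMIs and none in *Csf1r*+/-, was lower (unadjusted p = 0.00569). None of the 8 CA1 markers tested was under 0.01 (median -0.27), and *Man1a* measured 462 and 512 CPM in the WT and 340.3 and 365 CPM in the *Csf1r*+/- libraries (unadjusted p = 0.0785). Of 6 immediate early genes tested, none had p under 0.01 (median -0.86).

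Of 67 ribosomal protein genes tested, 3 had p under 0.01 (*Rps19*, *Rps7* and *Rpl17*, all lower), against 0.294% of all genes. A negative log2 fold change was found in 58 of the 67, against 4616 of all 8830 genes, and the median was -0.79 against -0.02. Most of these genes were sparse. Only 2 of the 67 reached a mean of 50 CPM, against 3052 of the 8830, and of these 2 genes 1 was positive and 1 negative. The summed level of the whole ribosomal list of 79 genes, in CPM without TMM scaling, was 1735, 2209, 1205 and 931 CPM by library in CA1-type nuclei, and 1115, 2373, 1075 and 980.4 CPM in other excitatory nuclei, where WT replicate 2 alone was high. The 11 mitochondrially encoded genes tested had a median of -0.78 and none under 0.01. Their sums of 1191, 4899.7, 2285 and 957 CPM, also unscaled, again set WT replicate 2 apart. The part of that library in the ribosomal values was not tested.

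The metallothionein genes, *Apoe* and *Aldoc*, which the study follows in neurons, and the ribosomal genes *Rpl37* and *Rps29*, which it measured in brain tissue, were sparse here. *Mt3*, a brain metallothionein that binds zinc and copper, had 11, 11, 3 and 1 UMIs, which is 14.2 and 46.6 CPM in the WT and 12.9 and 6.64 CPM in the *Csf1r*+/- libraries (log2 fold change -1.19 ± 0.85, unadjusted p = 0.177). Leaving out 1 library moved the *Mt3* log2 fold change between -2.09 and -0.40. *Mt1* had 3, 6, 1 and 0 UMIs and was too low to test. *Apoe* stood at 16.8 and 123 CPM against 30.1 and 0 CPM (unadjusted p = 0.0974), so that its WT mean rested on replicate 2, and *Aldoc*, *Rpl37* and *Rps29* had unadjusted p-values of 0.136, 0.161 and 0.0217. In the other excitatory nuclei *Mt3* stood at 16.4, 36.8, 12.7 and 11.6 CPM by library, so WT replicate 2 was the high library there too. Of 11 metal transport and storage genes tested, *Fth1* alone had p under 0.01 (median -0.21), against 0.589% of all genes and a median of -0.02.

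Whether the genotype effect differed between CA1-type and the 19357 other excitatory nuclei was tested as the interaction of class and genotype. Of 9609 genes tested, 102 had p under 0.01 (1.06%) and 1 an adjusted p under 0.05 (0.0104%), the noncoding transcript *6530403H02Rik*, and 0 to 26 genes passed under the alternatives. For *Vwc2l*, the next gene, the difference was 2.73 ± 0.52 on the log2 scale with adjusted p = 0.0853. For *Pde11a* and *Fth1* the difference did not pass (unadjusted p = 0.74 and 0.351). For the ribosomal list 1 of 67 genes differed at p under 0.01, with a median difference of -0.26 against -0.01 over all genes.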

How the data were processed

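The deposited values were UMI counts per gene and called nucleus, made by the authors with Cell Ranger 5.0.0 on build mm10 per the file headers and the labels. They were not normalized, and whether intronic reads were counted is not given in the sources used here. The study integrated and clustered its libraries, and that grouping was not used here. Library totals were 112226479, 89727416, 89436507 and 89799327 UMIs. Sums over the nuclei of a class in a library were tested, for genes detected in 10% or more of the nuclei of a compared group and with 10 or more counts. Further mice of the study were not analysed here. Tests used edgeR 4.0.16 under R 4.3.3 (TMM, quasi-likelihood, two-sided, Benjamini-Hochberg adjustment) and were tested on simulated data. DESeq2 1.42.0 was an alternative, as were other scalings, filters, rules, thinning, doublet removal (Scrublet in scanpy 1.11.5, top 0.8% per 1000 nuclei) and leaving out each library.

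The members and gene lists were chosen with earlier results of these data known. Genes named between genotypes were up to 10 in each direction with the smallest p under 0.01 whose genotypes did not overlap, 6 genes the study names, and the 3 most abundant and any called gene of a list. Between classes they were the 12 with the largest fold in each direction with at least 50 CPM in the higher class and the same direction in each library, and genes of the lists. Gene positions are from GENCODE release 21. No 2 libraries were duplicates: chi-square per degree of freedom between CA1-type sums was 2.13 to 2.59. P-values between genotypes measure the spread between libraries, 2 mice per genotype, which includes the sampling of few nuclei. In the class and interaction tests, with the library as a block, they measure the spread of class differences within the 4 libraries. Some genes of the lists are not reported here by name.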

Additional observations from a re-analysis of the deposited data

Results flagged for a closer look

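The noncoding transcript *6530403H02Rik* differed in its genotype effect between CA1-type and other excitatory nuclei by the test of the difference itself. In CA1-type nuclei it measured 232 and 194 CPM in the WT libraries and 309.5 and 451 CPM in the *Csf1r*+/- libraries, with 160, 114, 76.1 and 81.5 CPM in the other excitatory nuclei. The *Csf1r*+/- libraries were thus above the WT libraries in the first class and below them in the second. The difference was 1.61 ± 0.26 on the log2 scale (edgeR adjusted p = 0.0188), and within CA1-type nuclei alone the genotype effect was 0.80 with an unadjusted p of 0.00852. It also passed with the likelihood-ratio test, with the other scalings, without the detection filter and without high Scrublet scores. It did not pass with nuclei thinned to 2000 UMIs (0.15, edgeR adjusted p = 0.98). Leaving out 1 library, the difference ran from 1.38 to 1.83 on the log2 scale, and those fits are not read as calls.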

How the results depend on the processing

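The genotype count of 52 genes at p under 0.01 became 129 with the likelihood-ratio test, 7 with DESeq2, 28 with nuclei thinned to 2000 UMIs, 105 without high Scrublet scores, 8 with the rule applied to thinned counts (7, 4, 2 and 2 nuclei), 33 with at least 2 *Fibcd1* UMIs, and 85 to 104 leaving out 1 library. Of the 52 genes, those under 0.01 again numbered 3 in thinned nuclei, 1 with the rule on thinned counts, 7 with DESeq2, 8 with at least 2 *Fibcd1* UMIs, 47 without high Scrublet scores, 48 with the replicate block and 15 to 30 leaving out 1 library. Adjusted calls, 0 in the main test, were 2 with the likelihood-ratio test, 17 without high Scrublet scores and 0 to 15 leaving out 1 library, and 0 under the other settings apart from the block. The replicate numbers name mice and do not pair them: over 3052 genes the deviations of the replicates numbered 1 correlated at r = 0.04, and with the replicate number as a block 94 genes had p under 0.01 and 1 an adjusted p under 0.05. *Car10* turned to -0.34 in thinned nuclei. *Adarb2*, not called in the main test, was lower with at least 5 *Zbtb20* UMIs (-2.63) and ran from -2.41 to 1.35 leaving out 1 library.

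The 989 genes between classes became 531 in thinned nuclei and 731 to 960 leaving out 1 library; without the library block they were 930. The single interaction call became 9 with the likelihood-ratio test, 2 with summed UMIs as library size, 13 without the detection filter, 0 in thinned nuclei, 6 without high Scrublet scores and 2 to 26 leaving out 1 library. The difference in share was -0.659 points over excitatory nuclei and -0.336 to -0.0223 leaving out 1 library. The causes were not tested. The smallest library holds 11 CA1-type nuclei. Comparisons with dentate-type nuclei were not run: the planned rule found 35 nuclei, with *C1ql2* at 8.39 CPM and *Tdo2* at 0.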

Other observations

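With each nucleus thinned to 2000 UMIs, the ratio of variance to mean over nuclei was averaged over the 4 libraries for 3454 genes, whose median was 1.01. *Malat1* led with 18.9, followed by *Lrrtm4* (9.94), the noncoding RNA *Gm28928* (7.78), *Kcnip4* (6.32) and *Epha6* (6.27). Before thinning, *Lrrtm4* had a median of 3 UMIs in a nucleus and a highest count of 538. *Nxph1*, a neurexin ligand gene, had UMIs in 24 of the 134 nuclei, and its ratio of 4.44 came mainly from *Csf1r*+/- replicate 1 (13.0).

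Markers of depth and of the long axis of CA1 are given as nuclei with a UMI, which is not a count of expressing nuclei. *Dcn* had a UMI in 25 of 134 nuclei (18.7%) against 0.441% of upper-cortical-type nuclei, *Wfs1* in 17 (12.7% against 4.54%), *Gpc3* in 20 (14.9% against 4.54%) and *Calb1* in 32 (23.9% against 41.0%). The median nucleus held 8240 to 10933 UMIs in the CA1-type and 9018 to 12484 UMIs in the upper-cortical-type libraries. In nuclei thinned to 2000 UMIs *Dcn* was found in 5.22% against 0.0441%. Chosen after the values were seen, *Pde11a* was set against *Gpc3*. It stood at 65.8 CPM in the 20 nuclei with *Gpc3* and at 283 CPM in the 114 without. The order was the same within WT replicate 1 (74.7 and 415 CPM), WT replicate 2 (0 and 208 CPM) and *Csf1r*+/- replicate 1 (33.4 and 109 CPM), where *Gpc3* carriers numbered 16, 2 and 2. *Csf1r*+/- replicate 2 had none. For *Dcn*, *Pde11a* stood at 422 CPM in the 25 carriers and 204 CPM in the 109 others, and the libraries differed in order (552 and 255 CPM in WT replicate 1, 89.8 and 202 CPM in WT replicate 2).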
